A study of Mus musculus with 44 samples.

Results

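A set of 9 genes of calcium handling by the sarcoplasmic reticulum of the heart was followed: Atp2a2, Pln, Ryr2, Casq1, Casq2, Trdn, Slc8a1, S100a1 and Hrc. The set holds the probe sets that the array's annotation assigns to these symbols, 23 of the 20380 probe sets with 1 gene name, and the 9 genes stand among 12393 genes tested. Each of 44 mice gave left ventricular RNA for 1 Affymetrix 430A 2.0 array. PKCε mice carried a rabbit PKCε transgene, constitutively active and expressed in cardiomyocytes from the mouse Myh6 promoter, on the FVB/N strain. Nontransgenic FVB/N mice (FVB below) were the controls. Each line received nonimmune mouse IgG (10 mice) or FG-3149, an antibody against connective tissue growth factor (12 mice), given into the peritoneum at 30 mg/kg 2 times weekly over 3 months, so that mice aged 3 months at the start were 6 months old at the end. The labels give 7 females in the FVB IgG, 6 in the FVB FG-3149, 5 in the PKCε IgG and 6 in the PKCε FG-3149 group.

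With each beat, calcium that enters through the sarcolemma opens the ryanodine receptor, the calcium release channel encoded by Ryr2, and the released calcium drives contraction. For relaxation the pump encoded by Atp2a2 (SERCA2) returns calcium to the sarcoplasmic reticulum under restraint by phospholamban (Pln), and the sodium-calcium exchanger (Slc8a1) carries calcium out of the cell. Inside the reticulum, calsequestrin (Casq2 in heart, Casq1 mainly in fast skeletal muscle) binds calcium and is held at the release channel by triadin (Trdn), and the histidine-rich calcium binding protein (Hrc) also binds calcium there. The protein S100a1 binds calcium in the cytosol and acts on both the pump and the release channel.

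The upstream sequence of 7 of the 9 genes was found in the RefSeq promoter table (GRCm38.p6). The 250 bases before the start are shown for 3 genes that were lower in PKCε hearts, Pln (chr10:53337436-53337685, plus strand), Ryr2 (chr13:12106946-12107195, minus strand) and Hrc (chr7:45335019-45335268, plus strand), and for Casq1 (chr1:172219896-172220145, minus strand), which was higher. Each runs 5′ to 3′ on the gene's strand, and capitals mark matches on either strand to a searched motif.
Pln: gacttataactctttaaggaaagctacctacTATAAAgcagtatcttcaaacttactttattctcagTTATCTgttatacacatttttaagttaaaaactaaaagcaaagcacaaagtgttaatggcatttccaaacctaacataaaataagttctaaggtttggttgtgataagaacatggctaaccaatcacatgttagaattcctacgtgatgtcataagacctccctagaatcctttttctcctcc
Ryr2: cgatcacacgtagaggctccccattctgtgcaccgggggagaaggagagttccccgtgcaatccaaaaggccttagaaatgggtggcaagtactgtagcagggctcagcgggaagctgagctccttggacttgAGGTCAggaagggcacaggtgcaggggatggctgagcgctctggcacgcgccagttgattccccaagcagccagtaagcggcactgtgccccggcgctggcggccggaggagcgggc
Hrc: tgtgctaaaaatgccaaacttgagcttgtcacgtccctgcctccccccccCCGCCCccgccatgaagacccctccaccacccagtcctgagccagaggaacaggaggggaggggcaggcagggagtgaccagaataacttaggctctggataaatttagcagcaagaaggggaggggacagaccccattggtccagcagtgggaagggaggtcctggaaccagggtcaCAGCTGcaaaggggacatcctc
Casq1: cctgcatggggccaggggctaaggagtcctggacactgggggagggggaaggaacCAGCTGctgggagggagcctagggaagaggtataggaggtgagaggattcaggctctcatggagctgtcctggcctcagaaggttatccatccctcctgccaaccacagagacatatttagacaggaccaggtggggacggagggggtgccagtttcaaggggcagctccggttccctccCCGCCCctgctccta
The motifs searched were the core promoter element TATAAA, the site of Sp1 proteins with the letters GGGCGG, the site of TEAD proteins with the letters CATTCC, the site of GATA4 and its relatives with the letters AGATAA, the nuclear receptor element with the letters AGGTCA, the E-box of bHLH proteins with the letters CACGTG, the E-box of muscle regulators with the letters CAGCTG and the MEF2 and CArG consensus, and no 2 matches in the sequences shown overlap. The Pln window, the poorest in G and C at 32.8% against a median of 52.4% over 32851 promoters, holds TATAAA, which 12.4% of all promoters hold, and AGATAA on the opposite strand (9.99%). The Ryr2 window holds AGGTCA (14%). Those of Hrc and Casq1 both hold CAGCTG (13%) and GGGCGG on the opposite strand (32.7%), although Hrc was lower and Casq1 higher in PKCε hearts. None of the 9 motifs occurs in all 3 windows of the lower genes. A match is a description of these letters and no evidence of binding.

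Values are log2 of the deposited ratio of each probe set to its median over the 44 arrays, so 0 is the median array and levels cannot be compared between genes. For each gene the probe set with the widest spread over all arrays was used, and the others are given beside it. Differences are log2 differences with the standard error of 1 limma fit over all genes with a term for sex, and a gene was called at an adjusted p (Benjamini-Hochberg) under 0.05. Some arrays stood apart. The mean of the atrial genes Sln, Myl7 and Myl4 was above 4 on 5 FVB IgG, 1 FVB FG-3149, 2 PKCε IgG and 2 PKCε FG-3149 arrays, and the lung genes Sftpc and Scgb1a1 were both above 3 on PKCε IgG replicates 9 and 10. The Y-linked gene Uty stood at 3.63 on 1 array labelled female (FVB FG-3149 replicate 11), above every other female array (0.023 or less) and below every male array (3.78 to 4.86). Xist, a gene expressed in females, stood there at -0.71, between the other female arrays (-0.20 to 1.73) and the male arrays (-6.64 to -2.69). The sex of this array is thus unsettled. The 3′ minus 5′ difference of the Gapdh control probe sets, which tracks RNA quality, averaged -0.035 ± 0.078 (SD, n = 10) in FVB IgG, -0.13 ± 0.20 (n = 12) in FVB FG-3149, 0.30 ± 0.25 (n = 10) in PKCε IgG and 0.037 ± 0.11 (n = 12) in PKCε FG-3149 mice. The 2 probe sets of endogenous Prkce differed in opposite directions between PKCε IgG and FVB IgG mice (0.49 ± 0.15 and -0.57 ± 0.088), so they do not check the rabbit transgene.

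The comparison of the 2 lines on control IgG asks what the transgene changed without the test antibody. Of the 9 genes, 5 were lower in PKCε mice (Atp2a2, Pln, Ryr2, S100a1 and Hrc), 2 were higher (Casq1 and Trdn), and Casq2 and Slc8a1 were not called. In this comparison 42.2% of all 12393 genes were called, 20.7% higher and 21.5% lower. The median difference of the 9 genes was -0.25, against -0.046 over all genes. At the level of probe sets, 14 of the 23 were lower and 2 higher, against 20.6% and 21.1% of all named probe sets.

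**Figure D1:**
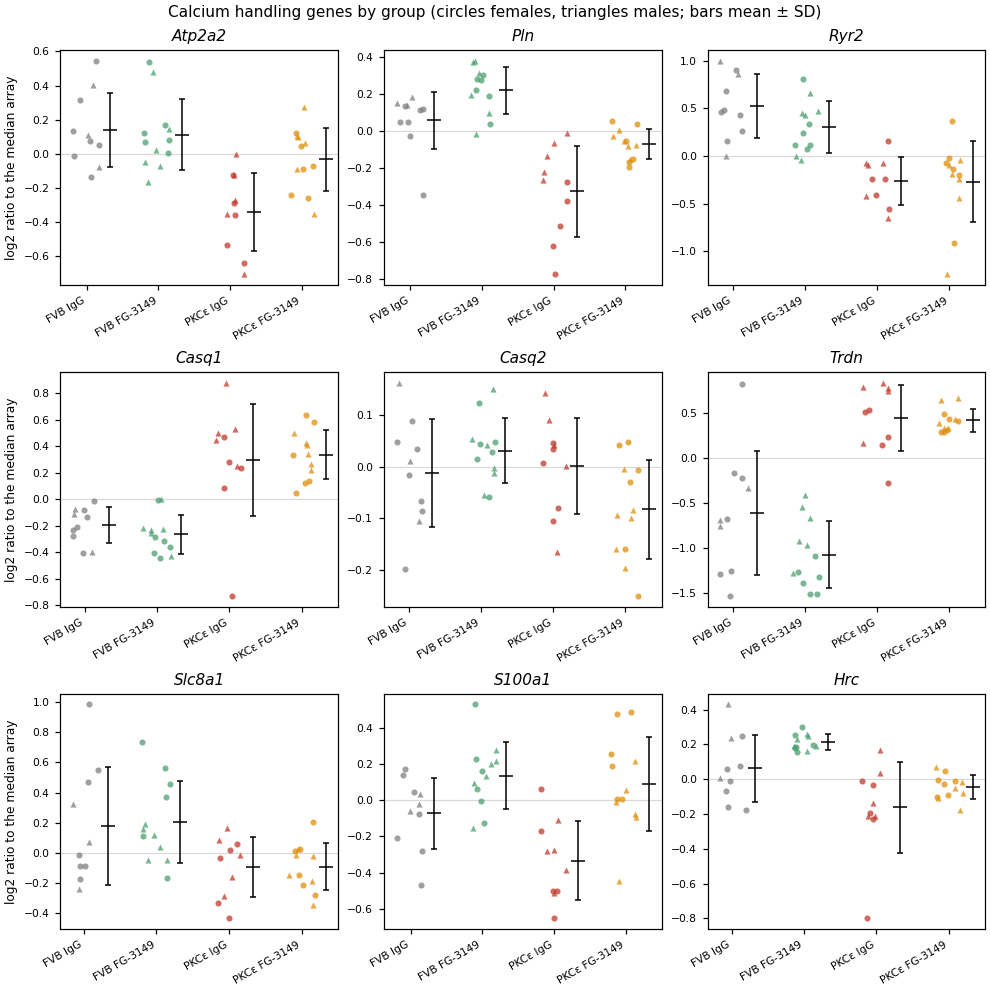
The log2 ratio to the median array is plotted for each of the 9 genes (1 panel each, probe set with the widest spread) in the 4 groups, with circles for female and triangles for male mice and bars for the mean ± SD. PKCε arrays lie low for Pln, Ryr2 and Hrc and high for Casq1 and Trdn. For Atp2a2 the PKCε IgG arrays lie low, while the PKCε FG-3149 arrays largely overlap those of FVB FG-3149 mice. PKCε IgG replicate 9 is the lone low point of its group for Casq1 (-0.73) and Hrc (-0.80).

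Among the uptake genes, Atp2a2 ran from -0.14 to 0.55 with a median of 0.095 in FVB IgG mice and from -0.71 to -0.0022 with a median of -0.32 in PKCε IgG mice. All 10 PKCε arrays lay below the FVB median and 7 below every FVB array, so the groups overlapped little. The difference was -0.49 ± 0.094, which left 71.4% of the FVB level (adjusted p = 4.87e-05, limma). All 4 Atp2a2 probe sets were called lower, by -0.15 ± 0.035 (1416551_at), -0.38 ± 0.053 (1427250_at), -0.49 (1427251_at) and -0.26 ± 0.038 (1452363_a_at). For 1452363_a_at the 2 groups did not overlap, with PKCε IgG arrays from -0.35 to -0.0086 and FVB IgG arrays from 0.00054 to 0.19. The same was so for 4.38% of all genes, each by its probe set of widest spread. A share over all probe sets was not computed.

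Pln, the brake on the pump, ran from -0.34 to 0.18 with a median of 0.12 in FVB IgG mice and from -0.77 to -0.0093 with a median of -0.27 in PKCε IgG mice. Every PKCε array was below the FVB median, and the groups overlapped mainly through FVB IgG replicate 2, the lowest FVB array. Pln was lower by -0.41 ± 0.067, at 75.4% of the FVB level (adjusted p = 3.52e-06, limma). A second probe set (1450952_at) was lower by -0.32 ± 0.044, while 1460332_at differed by -0.049 ± 0.042 and was not called (adjusted p = 0.339). Within the 8 cells of group and sex, Pln was lower on arrays with a larger Gapdh 3′ minus 5′ difference (r = -0.69 over 44 arrays), and with that difference as a covariate the Pln difference was -0.21 (adjusted p = 0.00973, limma). The part of RNA quality in the remaining difference was not tested.

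The release channel gene Ryr2 showed the widest decrease of the 9 genes. Values of 1421126_at ran from 0.0021 to 1.0 with a median of 0.47 in FVB IgG mice and from -0.65 to 0.16 with a median of -0.24 in PKCε IgG mice, and 9 of the 10 PKCε arrays lay below every FVB array. The difference was -0.78 ± 0.15, or 58.2% of the FVB level (adjusted p = 3.12e-05, limma). The other Ryr2 probe set (1450123_at) spread less within groups and did not overlap between them, with PKCε IgG arrays from -0.66 to -0.35 and FVB IgG arrays from 0.045 to 0.44. It was lower by -0.71 ± 0.063 (adjusted p = 4.85e-12 over all named probe sets, limma). Among all genes, 4.38% had groups that did not overlap, and none of the 9 genes did so with the probe set of widest spread.

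Of the storage proteins of the reticulum, cardiac Casq2 showed no called difference, at 0.013 ± 0.044 with a 95% interval from -0.076 to 0.10, and its medians were -0.0018 for FVB IgG and 0.022 for PKCε IgG arrays. The skeletal form Casq1 was higher. It ran from -0.41 to -0.014 with a median of -0.17 in FVB IgG mice and from -0.73 to 0.88 with a median of 0.37 in PKCε IgG mice. Of the 10 PKCε arrays, 9 lay above every FVB array and 1, replicate 9, below every FVB array. The difference was 0.46 ± 0.10, or 1.38-fold (adjusted p = 0.000385, limma). Leaving out 1 array at a time gave values from 0.41 to 0.58, all called. Markers of skeletal muscle did not rise beside it: of 10 measured, 0 were called higher and 2 lower, and their mean ran from -0.079 to 0.22 in FVB IgG and from -0.15 to 0.11 in PKCε IgG mice.

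Hrc ran from -0.18 to 0.43 with a median of 0.033 in FVB IgG mice and from -0.80 to 0.17 with a median of -0.16 in PKCε IgG mice, and the groups overlapped. Its difference was -0.24 ± 0.070 (adjusted p = 0.00492, limma). Hrc followed the mean of 13 ventricular cardiomyocyte markers within cells of group and sex (r = 0.79 over 44 arrays), and that mean was 0.016 ± 0.099 (SD, n = 10) on FVB IgG and -0.11 ± 0.10 (n = 10) on PKCε IgG arrays. Of the 13, 2 were called higher, 4 lower and 7 not called. Their median difference was -0.069, against -0.046 over all genes. With the marker mean as a covariate, the Hrc difference was 0.016 (adjusted p = 0.869) and that of Atp2a2 -0.25 (adjusted p = 0.0616), both by limma and neither called. In whole ventricle, fewer cardiomyocytes and less RNA per cardiomyocyte cannot be told apart. Of the 8 fibroblast markers, 7 were called higher in PKCε IgG mice, and their mean ran from -0.85 to 0.24 in FVB IgG and from 0.21 to 1.40 in PKCε IgG mice. Lower in the same comparison were 4 of 5 adipocyte markers (median -1.18) and 2 of 4 smooth muscle markers (median -0.52). Of 7 atrial markers 1 was higher and 1 lower (median -1.47). Higher were 1 of 6 endothelial and 1 of 5 macrophage markers, and 0 of 5 lung markers were called. The adipocyte mean was 1.09 in FVB IgG, against -0.080 in FVB FG-3149, -0.15 in PKCε IgG and -0.11 in PKCε FG-3149 mice. The smooth muscle mean was 0.58, against -0.14, 0.041 and -0.063 in the same order. Between lines under FG-3149, 0 of 5 adipocyte markers were called and 1 of 4 smooth muscle markers was lower. The part of cell makeup in the member differences was not tested, beyond the ventricular covariate.

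**Figure D2:**
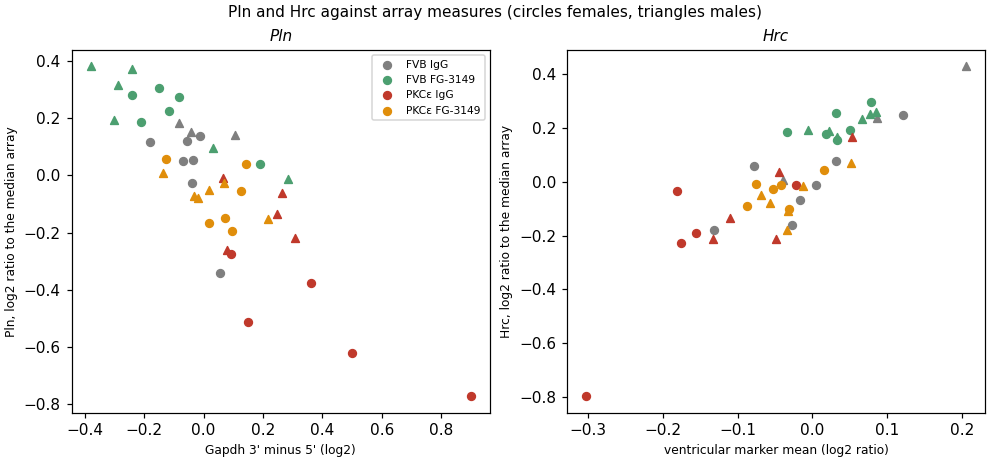
Left, Pln against the Gapdh 3′ minus 5′ difference of the same array; right, Hrc against the mean of 13 ventricular markers; all axes are on the log2 scale, 1 point is 1 array, colours are groups and shapes the sexes. Pln falls as the Gapdh difference grows (r = -0.69 within cells), with PKCε IgG replicate 10 at the far right (0.90, Pln -0.77), and Hrc follows the ventricular mean (r = 0.79), with PKCε IgG replicate 9 at the low end (-0.30, Hrc -0.80).

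The triadin gene gave the largest difference and the least agreement between probe sets. With 1426143_at, the probe set of widest spread, Trdn ran from -1.53 to 0.82 with a median of -0.68 in FVB IgG mice and from -0.28 to 0.84 with a median of 0.52 in PKCε IgG mice. All 10 PKCε arrays were above the FVB median, and FVB IgG replicates 1, 2 and 3 lay within the PKCε range. The difference was 1.0 ± 0.18, or 2.00-fold (adjusted p = 1.04e-05, limma), and 1.42 without the 10 arrays of high atrial level, which include those 3 (adjusted p = 7.97e-10, limma). Yet 4 other Trdn probe sets were lower in PKCε IgG mice: 1426134_at by -0.53 ± 0.098, 1426142_a_at by -0.27 ± 0.059, 1451801_at by -0.34 ± 0.075 and 1451940_x_at by -0.49 ± 0.086, with adjusted p values from 1.25e-05 to 0.000305 (limma). The sixth, 1426144_x_at, differed by 0.26 ± 0.11 and was not called (adjusted p = 0.0584).

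Across the 44 arrays, after removal of the mean of each cell of group and sex, the 4 lower Trdn probe sets followed each other (r from 0.60 to 0.91). The higher one did not follow them (r from -0.21 to -0.058) but did follow 1426144_x_at (r = 0.53). Residuals of 1 array share its hybridization, so these values only describe the arrays. Averaged over its 6 probe sets, Trdn differed by -0.061 (adjusted p = 0.446, limma), so no single direction holds for the gene. Which transcripts the probe sets detect was not analysed here.

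**Figure D3:**
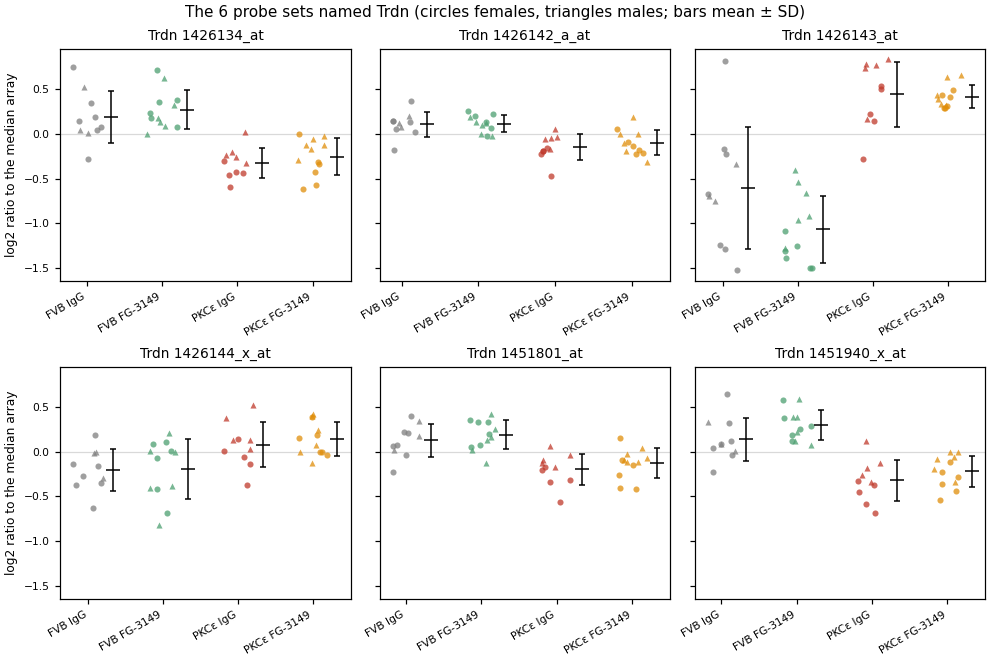
The log2 ratio to the median array is plotted for each of the 6 Trdn probe sets in the 4 groups, with circles for female and triangles for male mice and bars for the mean ± SD. The PKCε groups are high for 1426143_at (means 0.45 and 0.42, against -0.61 and -1.07 in FVB mice) and low for 1426134_at, 1426142_a_at, 1451801_at and 1451940_x_at.

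For calcium extrusion, Slc8a1 ran from -0.24 to 0.98 with a median of 0.032 in FVB IgG mice and from -0.43 to 0.16 with a median of -0.024 in PKCε IgG mice. The groups overlapped over most of the PKCε range. Its difference of -0.25 ± 0.12 was not called (adjusted p = 0.0721, limma). Without the 10 arrays of high atrial level it was -0.43 and called (adjusted p = 0.0179, limma), and leaving out FVB IgG replicate 1, 3, 4 or 6 or PKCε IgG replicate 3 also gave a call (adjusted p down to 0.0364). The other Slc8a1 probe sets differed by 0.12 ± 0.11 and -0.0079 ± 0.060, not called, and the 3 hardly followed each other (r from -0.056 to 0.21).

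The modulator S100a1 ran from -0.47 to 0.17 with a median of -0.040 in FVB IgG mice and from -0.65 to 0.061 with a median of -0.33 in PKCε IgG mice, with 9 of 10 PKCε arrays below the FVB median. It was lower by -0.25 ± 0.097 (adjusted p = 0.0352, limma), and this call was lost when any 1 of 10 arrays was left out (FVB IgG replicates 1, 4, 5, 6, 7 or 8, or PKCε IgG replicates 3, 6, 9 or 10), with values from -0.29 to -0.21 over all arrays left out and an adjusted p of up to 0.0902. It was also lost without the 2 arrays of high lung markers (-0.17, adjusted p = 0.190) and with the Gapdh difference as a covariate (-0.11, adjusted p = 0.485, limma). The second S100a1 probe set, which followed the first closely (r = 0.91), differed by -0.057 ± 0.079 and was not called.

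**Figure D4:**
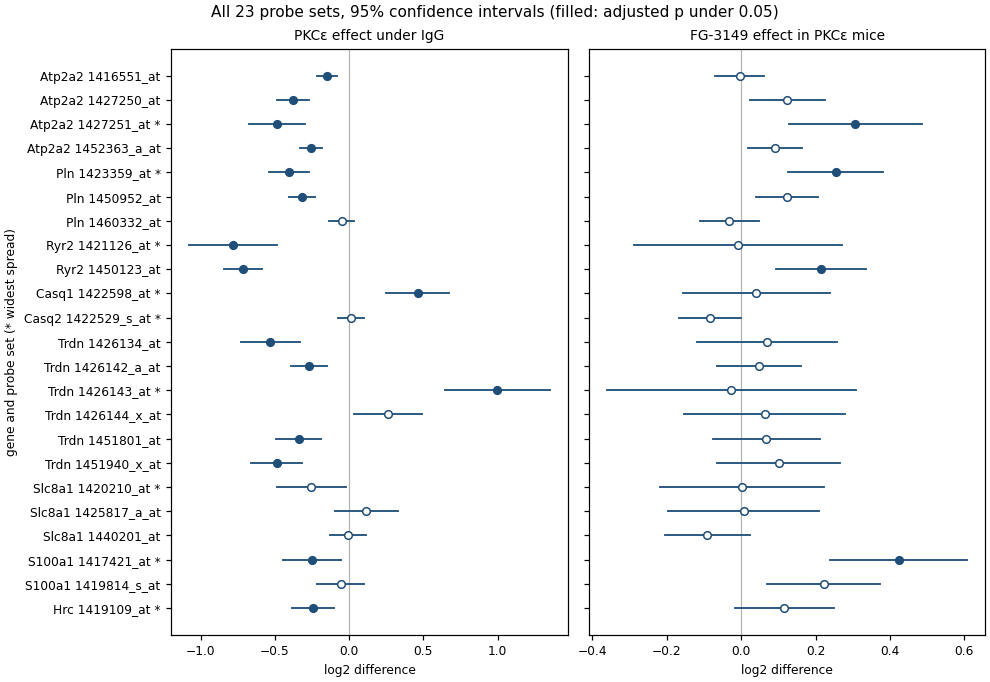
Log2 differences with 95% confidence intervals are plotted for all 23 probe sets, left for PKCε IgG minus FVB IgG and right for PKCε FG-3149 minus PKCε IgG; filled points have an adjusted p under 0.05 over all named probe sets and an asterisk marks the probe set of widest spread. On the left, 14 probe sets lie lower and 2 higher, with Trdn on both sides; on the right, 4 lie higher (1 each of Atp2a2, Pln, Ryr2 and S100a1) and 0 lower.

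The comparison of PKCε FG-3149 with PKCε IgG mice asks what the antibody changed in the transgenic line. Of the 9 genes, 3 were higher with the antibody, the pump gene Atp2a2, its regulator Pln and S100a1, and 0 were lower. Over all genes 8.82% were called, 5.08% higher and 3.74% lower. Of the 23 probe sets, 4 were higher and 0 lower, against 4.68% and 3.94% of all named probe sets. Markers of cell types moved in the same comparison. Of the 8 fibroblast markers, 3 were lower with the antibody and 0 higher: Col1a2 (-0.63 ± 0.16), Col3a1 (-0.81 ± 0.19) and Postn (-1.01 ± 0.23), and the mean of the 8 ran from 0.21 to 1.40 on IgG and from -0.0037 to 0.93 on antibody arrays of PKCε mice. Of the 13 ventricular markers, Myh6 (0.62 ± 0.13) and Ckm (0.27 ± 0.069) were higher and 0 lower. Their part in the member differences was not tested, beyond the ventricular covariate given below. Atp2a2, Pln and S100a1 are also among the 5 genes that were lower in PKCε IgG than in FVB IgG mice, and both comparisons share the PKCε IgG arrays, so the opposite signs are not independent.

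With the antibody, Atp2a2 ran from -0.36 to 0.27 with a median of -0.013 in PKCε mice, and 11 of the 12 arrays were above the PKCε IgG median. The difference was 0.31 ± 0.089 (adjusted p = 0.0234, limma). Its other probe sets differed by -0.0037 ± 0.033, 0.12 ± 0.050 and 0.091 ± 0.036, none called. Leaving out PKCε IgG replicate 1, 9 or 10 ended the call, with values from 0.26 to 0.34 and adjusted p from 0.0103 to 0.0584 over all arrays left out.

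Pln with the antibody ran from -0.19 to 0.057 with a median of -0.063, and all 12 arrays were above the PKCε IgG median, 3 of them above every PKCε IgG array. The 2 groups overlapped for each of the 9 genes, while 0.113% of all genes did not overlap. The difference was 0.25 ± 0.064 (adjusted p = 0.00813, limma). The spread was also narrower, with an SD of 0.082 (n = 12) against 0.25 (n = 10) with IgG. The SD also fell for Hrc (0.070 against 0.26), Trdn (0.13 against 0.37), Casq1 (0.185 against 0.42) and the Gapdh difference (0.11 against 0.25). Atp2a2 and Slc8a1 fell less, and Ryr2 (0.43 against 0.25), S100a1 (0.26 against 0.22) and, slightly, Casq2 rose. The IgG SDs of Casq1 and Hrc include replicate 9, far below the rest of its group. It stood at -0.73 for Casq1 (the next at 0.086) and at -0.80 for Hrc (the next at -0.23). The part of single arrays in these SDs was not tested. Of the other Pln probe sets, 1450952_at differed by 0.12 ± 0.041 (adjusted p = 0.0507, limma) and 1460332_at by -0.032 ± 0.039, neither called.

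S100a1 with the antibody ran from -0.45 to 0.49 with a median of 0.034, and 11 of the 12 arrays were above the PKCε IgG median. It was higher by 0.42 ± 0.092, or 1.34-fold (adjusted p = 0.00232, limma), and its second probe set differed by 0.22 ± 0.075 (adjusted p = 0.0541, limma). Ryr2 differed by -0.0092 ± 0.14 with 1421126_at, whereas 1450123_at was higher by 0.21 ± 0.060 (adjusted p = 0.0181, limma), with 8 of 12 antibody arrays above every IgG array. That probe set ran from -0.55 to -0.028 with the antibody and so remained below every FVB array of either treatment, the lowest of which was 0.028.

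The other genes of the set were not called: Casq1 differed by 0.041 ± 0.099, Casq2 by -0.084 ± 0.042, Trdn by -0.026 ± 0.17, Slc8a1 by 0.0023 ± 0.11 and Hrc by 0.12 ± 0.067. Their intervals reached 0.24 for Casq1, 0.31 for Trdn and 0.25 for Hrc, so changes of that size are within the error. With the Gapdh difference as a covariate, the values were 0.27 for Atp2a2 (adjusted p = 0.135), 0.11 for Pln (0.339) and 0.32 for S100a1 (0.0645), none called by limma. Without PKCε IgG replicates 9 and 10, Atp2a2 was at 0.24 (adjusted p = 0.143) and Pln at 0.19 (adjusted p = 0.0788), and of the 3 only S100a1 was called (0.35, adjusted p = 0.0287, limma). With the ventricular marker mean as a covariate, Atp2a2 was at 0.18 (adjusted p = 0.272) and Pln at 0.17 (adjusted p = 0.115), and S100a1 at 0.33 was called (adjusted p = 0.0373, limma). In males alone none of the 3 was called, with 0.31 for Atp2a2, 0.075 for Pln and 0.26 for S100a1 (adjusted p from 0.351 to 0.839, limma), at 5 and 6 arrays a group.

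**Figure D5:**
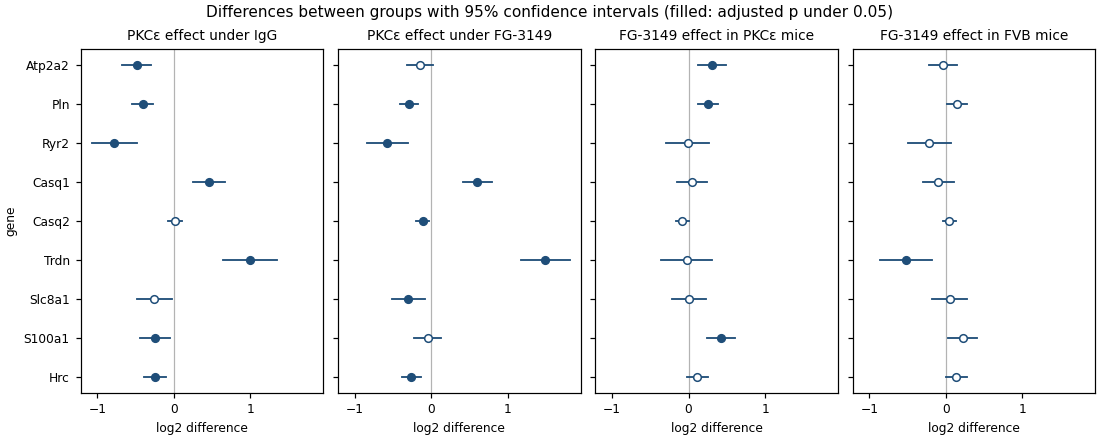
Log2 differences with 95% confidence intervals are plotted for the 9 genes in 4 comparisons; filled points have an adjusted p under 0.05 over all genes. PKCε mice are lower for Pln, Ryr2 and Hrc and higher for Casq1 and Trdn under either antibody, and FG-3149 is called higher for Atp2a2, Pln and S100a1 in PKCε mice and lower for Trdn in FVB mice.

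In FVB mice the antibody gave 1 call of the 9, Trdn with 1426143_at, which was lower. Over all genes 9.01% were called, 4.43% higher and 4.58% lower. These 1116 calls fell to 217 without arrays of high atrial level and to 263 with the atrial marker level as covariate. In the same comparison 6 of 7 atrial, 3 of 5 adipocyte and 2 of 4 smooth muscle markers were lower, and 0 higher. The part of tissue makeup in these calls was not tested further. Trdn ran from -1.51 to -0.41 with a median of -1.17 in FVB FG-3149 mice, within the range of the FVB IgG arrays, and differed by -0.52 ± 0.17 (adjusted p = 0.0433, limma). The call was lost when any 1 of 11 arrays was left out (FVB IgG replicates 1, 2, 3, 4 or 8, or FVB FG-3149 replicates 4, 5, 6, 7, 10 or 11), with an adjusted p of up to 0.109, and without the arrays of high atrial level the value was -0.15 (adjusted p = 0.757, limma). The other 5 Trdn probe sets differed by -0.011 to 0.13 and were not called. Pln differed by 0.14 ± 0.064 and S100a1 by 0.22 ± 0.093, neither called (adjusted p = 0.186 and 0.139, limma), and Hrc, which differed by 0.13 ± 0.067 (adjusted p = 0.232, limma), had all 12 antibody arrays above the IgG median, from 0.16 to 0.30. The antibody and IgG arrays of FVB mice overlapped for each of the 9 genes, while 0.234% of all genes did not overlap.

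Between lines under FG-3149, 7 of the 9 genes were called, 2 higher and 5 lower in PKCε mice, against 47% of all genes (21.5% higher and 25.5% lower). Trdn (1426143_at) differed by 1.49 ± 0.16, or 2.81-fold (adjusted p = 4.52e-10), and Casq1 by 0.60 ± 0.094 (adjusted p = 1.74e-06, limma). As under IgG, the Trdn probe sets disagreed: 1426144_x_at was also higher (0.34 ± 0.10), while 1426134_at, 1426142_a_at, 1451801_at and 1451940_x_at were called lower, by -0.53 ± 0.089, -0.22 ± 0.053, -0.32 ± 0.068 and -0.52 ± 0.078. Lower were Ryr2 (-0.57 ± 0.13), Slc8a1 (-0.30 ± 0.11), Pln (-0.29 ± 0.061), Hrc (-0.26 ± 0.064) and Casq2 (-0.11 ± 0.040), the last at an adjusted p of 0.0179 (limma). The call of Slc8a1 rests on 1 of its 3 probe sets, since the others differed by -0.014 ± 0.096 and -0.038 ± 0.054 and were not called, whereas all 3 Pln and both Ryr2 probe sets were called lower. Atp2a2 (-0.15 ± 0.085) and S100a1 (-0.046 ± 0.088) were not called. The antibody arrays of the 2 lines did not overlap for Casq1, Trdn and Hrc, as was so for 5.25% of all genes. The other 3 Atp2a2 probe sets, however, were each lower, by -0.12 ± 0.031, -0.36 ± 0.048 and -0.23 ± 0.034 (adjusted p from 7.52e-08 to 0.00195, limma), and 2 of these 3 did not overlap between the lines.

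The difference of the antibody effect between the lines was called for 0 of the 9 genes by limma, with 3 at an unadjusted p under 0.05, against 3.87% of all genes called. Those 3 were Atp2a2 (0.34 ± 0.13, unadjusted p = 0.0103, adjusted p = 0.132), Casq2 (-0.13 ± 0.059, adjusted p = 0.272) and Trdn (0.49 ± 0.24, adjusted p = 0.289). An antibody effect that belongs to the PKCε line alone is therefore not shown for Atp2a2, Pln or S100a1.

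Between the sexes, Pln was lower in females by -0.13 ± 0.041 over the 4 groups (adjusted p = 0.0194, limma), the single member called, against 18.7% of all genes. Its other probe sets differed by -0.062 ± 0.027 and -0.034 ± 0.029 and were not called (adjusted p = 0.0971 and 0.414, limma). In PKCε IgG mice Pln ran from -0.77 to -0.27 in the 5 females and from -0.26 to -0.0093 in the 5 males, so the sexes did not overlap, as was so for 1 of the 9 genes and for 15.1% of all genes, while with the antibody the females (-0.19 to 0.057) and males (-0.15 to 0.0092) overlapped. The antibody effect on Pln in PKCε mice was larger in females by 0.36 ± 0.11, with an unadjusted p of 0.0031 and an adjusted p of 0.340 (limma), and was not called. No member was called for a sex difference in the PKCε effect under IgG (10 genes in all, 0.0807%). The same held for the antibody effect in PKCε mice (2 genes, 0.0161%) and for that in FVB mice (1 gene, 0.00807%). At an unadjusted p under 0.05 stood Casq1 for the PKCε effect (-0.45 ± 0.21) and Pln and Casq1 (0.40 ± 0.19) for the antibody effect in PKCε mice. Both Casq1 values draw on female replicate 9 of the PKCε IgG group (-0.73, the next array at 0.086). The part of that array was not tested. The PKCε IgG females included the 2 arrays with the largest Gapdh difference of their group (replicates 10 and 6, at 0.90 and 0.50), and its part in the Pln split was not tested.

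Within the cells of group and sex, the 9 genes did not move as 1 block. Of 36 pairs, 11 had r above 0.3, 1 above 0.5 and 2 below -0.3, and the median was 0.15. The pair above 0.5 was Casq1 with Hrc (r = 0.60), which fell to 0.37 without 2 arrays. Casq2 followed S100a1 (0.48) and Casq1 (0.45), Atp2a2 followed Hrc (0.40) and Pln (0.32), and Trdn ran against Slc8a1 (-0.45). The genes closest to Pln were Dhrs4, a short-chain dehydrogenase, Pkia, an inhibitor of protein kinase A, and Mrpl9, a mitochondrial ribosomal protein (r = 0.84, 0.84 and 0.83), and those closest to Atp2a2 were Idh2, mitochondrial isocitrate dehydrogenase, Zfp568 and Frmd5 (0.66 each). Closest to Casq1 were Tmod4, Eif4e and Pfkm (0.68, 0.65 and 0.62), which fell to between 0.40 and 0.50 without 2 arrays.

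Other genes of the pathway were taken as lists. Of 18 measured proteins and partners of the reticulum, 5 were higher and 4 lower in PKCε IgG than in FVB IgG mice, against 20.7% and 21.5% of all genes, with a median of 0.020 against -0.046. Calr, a calcium-binding chaperone, was higher by 0.44 ± 0.078 (adjusted p = 1.29e-05, limma), and Sri, which encodes the calcium-binding protein sorcin, by 0.30 ± 0.068. Cherp (0.36 ± 0.064) and Stim1 (0.30 ± 0.091) were also higher, but another probe set of each was not called. Tmem38a, which encodes a potassium channel of the reticulum that balances charge during release, was lower by -0.79 ± 0.11 (adjusted p = 8.1e-08, limma), and Jph2, which tethers the reticulum to the sarcolemma, by -0.23 ± 0.088. Tmem38b (-0.30 ± 0.096) and Itpr2 (-0.26 ± 0.093) were lower too, though not with all of their probe sets. Neither was called with the antibody in PKCε mice (0.12 ± 0.091 and -0.0029 ± 0.088). In PKCε mice the antibody gave 2 higher calls of 18 and 0 lower, against 8.82% of all genes called: Tmem38a at 0.56 ± 0.10 and Jph2 at 0.31 ± 0.083, with adjusted p of 0.00042 and 0.0147 (limma). A second Tmem38a probe set was lower under IgG (-0.45 ± 0.086) but differed with the antibody by 0.21 ± 0.081 and was not called (adjusted p = 0.110, limma). Tmem38a ran from -1.30 to -0.30 in PKCε IgG and from -0.48 to 0.062 in PKCε FG-3149 mice. The 2 antibody calls fell to 1 without arrays of high atrial level or high lung markers, and with quantile normalization or smallest-SD probe sets. The count was also 1 with the ventricular or Gapdh covariate, 0 in males alone and 3 with only the 2 groups compared. Calls over all genes, 1093 in the main fit, were 528, 442, 726, 809, 407, 480, 57 and 1166 in these settings, in the order given.

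Of 15 measured genes of phosphorylation and calmodulin control, 2 were higher and 4 lower under IgG, against 20.7% and 21.5% of all genes (median 0.017). Prkar1a, a regulatory subunit of protein kinase A, was higher by 0.91 ± 0.082 (adjusted p = 6.62e-12, limma). It ran from -0.64 to -0.20 in FVB IgG and from 0.18 to 0.73 in PKCε IgG mice. These groups did not overlap, as was so for 4.38% of all genes. The other higher gene was Ppp1ca (0.14 ± 0.050). Lower were Ppp1r1a, an inhibitor of protein phosphatase 1 (-0.63 ± 0.11), Camk2b, a subunit of the calmodulin-dependent kinase (-0.55 ± 0.11), Ppp1cb (-0.31 ± 0.094) and Ppp1r3a (-0.13 ± 0.044). The 3 other Ppp1cb probe sets differed by -0.085 ± 0.10, 0.016 ± 0.11 and -0.13 ± 0.093, none called. Of these, Camk2b was higher with the antibody in PKCε mice (0.34 ± 0.11, adjusted p = 0.0343, limma), the single call of the 15 in that comparison, against 8.82% of all genes. The list had 0 higher calls without a term for sex, with a replicate block or quantile normalization, and in females or males alone. It also had 0 without arrays of high atrial level or of high lung markers, and with the ventricular or Gapdh covariate. The Gapdh covariate gave 2 lower calls. With array weights or the smallest-SD probe sets 2 were higher. Calls over all genes, 1093 in the main fit, also moved. They were 836 without a term for sex, 792 with a replicate block, 813 in females alone and 1334 with array weights.

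Of 11 measured genes of sarcolemmal and mitochondrial transport, 1 was higher and 7 lower under IgG, against 20.7% and 21.5% of all genes (median -0.21, against -0.046 over all genes). The higher gene was Slc8b1 (0.27 ± 0.084). The lower count was 2 with the ventricular covariate, 3 with smallest-SD probe sets (and 3 higher) or in males alone, and 4 with the Gapdh covariate. It was 5 with averaged probe sets or without arrays of high lung markers, and 7 with a replicate block or the atrial covariate. Lower calls over all genes, 2669 in the main fit, were 1446, 2602, 1074, 1861, 2847, 2034, 2600 and 3196 in these settings, in the order given. The lower genes included Atp2b2, a plasma membrane calcium pump (-0.88 ± 0.19, with its other probe sets at -0.18 ± 0.045 and -0.24 ± 0.081, both called), and Cacnb2, the beta subunit of the L-type calcium channel (-0.62 ± 0.13). Atp2b2 ran from -0.15 to 2.28 with a median of 0.32 in FVB IgG mice and from -0.46 to 0.14 in PKCε IgG mice. Between lines under FG-3149 it differed by -0.26 ± 0.17 and was not called (adjusted p = 0.210, limma). Letm1 of the inner mitochondrial membrane was lower by -0.53 ± 0.065 with the probe set of widest spread, but its 3 others differed by -0.21 ± 0.11, 0.17 ± 0.11 and 0.22 ± 0.074, the last called higher. With the antibody in PKCε mice 2 of the 11 were higher and 0 lower, against 5.08% and 3.74% of all genes. They were Cacnb2, by 0.58 ± 0.12 (adjusted p = 0.00134), and Cacna1c, the pore of the same channel, by 0.47 ± 0.11 (adjusted p = 0.00631, limma). The higher count was 1 with the ventricular or the Gapdh covariate and 0 in males alone. With averaged or smallest-SD probe sets 2 were higher and 1 lower.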

How the data were processed

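Per the labels, the authors summarised probe sets by GCRMA (version not given in the sources used here) and deposited the ratio of each to its own median, made in GeneSpring GX 7.3.1. The median was checked to lie within 0.001 of 1 for each of 22690 probe sets. These ratios hold neither brightness nor detection calls, so depth is unknown and precision rests on the number of arrays.

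Log2 of each ratio was taken without a pseudocount or a filter, so all 9 genes were tested. Annotation symbols were updated through Entrez identifiers to GRCm38.p6. Each gene was represented by its most variable probe set (highest SD over 44 arrays), a choice blind to group that can favour probe sets that differ. Groups came from the sample titles and were compared by limma 3.58.1 in R 4.3.3 (lmFit, eBayes, a term for sex, two-sided) over 12393 genes, and probe sets in a fit over 20380. Each array is a separate mouse. Sex interactions used 8 cells of group and sex. Correlations are over residuals from these cells.

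The members, lists, alternatives and named genes were chosen with earlier results of these data known. Named genes were the members, 3 genes most like each of Atp2a2, Pln and Casq1, and called list genes. Of the latter, up to 3 a direction with the largest difference were taken, for PKCε under IgG and the antibody in PKCε mice. Sri, Ppp1r3a, Prkce, Uty, Xist and cell type markers were named beside them. The fit was tested on simulated data. Alternatives covered sex, block, scaling, floor, pseudocount, probe set, filter, eBayes, weights, covariates, threshold and arrays left out. Protein levels and heart function were not analysed here.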

Additional observations from a re-analysis of the deposited data

Results flagged for a closer look

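In the 2 groups of 10 arrays, 46 groups of values (23 probe sets each) were checked for a lone extreme array, and 5 had one by Dixon's criterion, which chance meets in about 1 of 20. FVB IgG replicate 2 was far below the other FVB IgG arrays for both Pln 1423359_at (-0.343, the next at -0.027) and Pln 1450952_at (-0.146, the next at 0.022). The same array had the highest atrial marker level of its group (8.47) and the highest Trdn 1426143_at value (0.82).

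PKCε IgG replicate 9 was far below the other PKCε IgG arrays for Casq1 (-0.73, the next at 0.086), Hrc (-0.798, the next at -0.23) and Trdn 1426142_a_at (-0.473, the next at -0.22). That array had Sftpc and Scgb1a1 values of 9.32 and 10.1 and the lowest ventricular marker mean of its group (-0.30). Its part in these values was not tested. Leaving out 1 array at a time moved the PKCε difference under IgG between 0.41 and 0.58 for Casq1 and between -0.27 and -0.17 for Hrc.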

How the results depend on the processing

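Under the alternatives other than single arrays left out in turn, the 18 called member differences gave 375 values, of which 316 kept direction and call, 53 kept direction but not the call and 6 turned. The 27 differences not called gave 551 values, of which 546 stayed so, 4 were called and 1 turned. Turned were Trdn under IgG with the mean of its probe sets (-0.061) or the probe set of smallest SD (-0.27), Trdn between lines under FG-3149 with the latter (-0.22), Atp2a2 (-0.0037), Pln (-0.032) and Ryr2 (0.21) for the antibody in PKCε mice with the latter, and Hrc under IgG with the ventricular marker mean as covariate (0.016); for the probe sets the turn comes from using another probe set, otherwise the cause was not tested. The count of members called under IgG (7) was 4 in females alone and 4 with the ventricular covariate, and between lines under FG-3149 (7) it was 4 in females alone. For the antibody in PKCε mice (3) it was 1 with the smallest-SD probe set, without arrays of high atrial level, without arrays of high lung markers or with the ventricular covariate, and 0 in males alone or with the Gapdh covariate. For the antibody in FVB mice (1) it was 0 with a threshold of 0.01, no sex term, quantile normalization, averaged or smallest-SD probe sets, array weights, only the 2 groups, females or males alone, without the array of unsettled sex, without arrays of high atrial level, and with the atrial or Gapdh covariate; leaving out 1 array gave 0 to 1. Over all 12393 genes the number called also moved in these settings. Under IgG it was 5235, then 4564 in females alone and 3242 with the ventricular covariate. Between lines under FG-3149 it was 5830, then 4204 in females alone. For the antibody in PKCε mice it fell from 1093 to 809, 528, 442, 407, 57 and 480, in the order above. For the antibody in FVB mice it was 1116, and from 57 in males alone to 1215 with no sex term. Replicate numbers name different mice, and arrays with the same number did not deviate together. Their mean r was -0.025 over 62 pairs, against 0.0022 for other pairs, and 3 of 44 arrays were closest to one of their own number. With a replicate block, 7, 2, 1 and 7 members were called for PKCε under IgG, the antibody in PKCε and in FVB mice and PKCε under FG-3149, and the call lost was Atp2a2 (0.28, adjusted p = 0.0544, limma). Sex-split fits hold 3 to 7 arrays a group, so a lost call there also reflects fewer arrays.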

Other observations

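The difference Pln minus Atp2a2, a comparison of changes and not of levels, had means of -0.083, 0.11, 0.016 and -0.037 in FVB IgG, FVB FG-3149, PKCε IgG and PKCε FG-3149 mice. In PKCε IgG mice it was -0.12 ± 0.14 (SD, n = 5) in females and 0.15 ± 0.24 (n = 5) in males.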
